A study of Mus musculus with 8 samples.

Results

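The histone genes were examined in mouse undifferentiated spermatogonia, a population that contains the germline stem cells of the testis, after induced deletion of Tert, which encodes the catalytic subunit of telomerase. Members were the rows of the authors' deposited table whose symbols carry a histone gene name, which gave 79 of 14853 genes. Names of the form Hist1 to Hist4 made up the replication-dependent genes, 67 in number, and the other names made up the 12 variant genes. By subclass, the replication-dependent genes were 6 of H1, 18 of H2A, 17 of H2B, 13 of H3 and 13 of H4, and the variants were 3 of H1, 6 of H2A and 3 of H3.

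Total RNA was sequenced from 4 Tert CreER/flox and 4 Tert CreER/+ samples, in which tamoxifen had been given to C57BL/6 mice of 8 to 12 weeks and cells were collected 7 days later. Both groups carry CreER, a tamoxifen-activated recombinase, at 1 Tert allele, together with a Cre-activated tdTomato reporter at Rosa. In the flox animals the other allele is flanked by loxP sites, and in the CreER/+ animals it is normal, so the second group still has 1 intact copy and no group without CreER was used here. The sample titles call the groups TERT-del and TERT-hetero. Cells were sorted for high MCAM, absence of KIT and tdTomato, so they are cells in which CreER, made from the Tert locus, had been active. The labels do not say whether each sample came from a separate mouse or a pool, and p-values measure only the spread between these samples. Since the samples are bulk RNA, fewer cells of a type and less RNA per cell cannot be told apart.

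Histones package DNA into nucleosomes, in which H2A, H2B, H3 and H4 form the core and the linker histone H1 binds at the entry and exit of the DNA. Most histone protein is made in S phase from replication-dependent genes, which lie in clusters, lack introns and give messenger RNAs that end in a conserved stem-loop bound by SLBP in place of a poly(A) tail. Variant histones such as H3.3, H2A.Z and macroH2A are made throughout the cell cycle, mostly from ordinary polyadenylated messages, and the male germline has additional histones of its own that precede or accompany the exchange of histones for protamines.

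The stem-loop that distinguishes the 2 kinds of message was looked for in the mouse transcripts of GENCODE M21 (build GRCm38), within the first 100 bases after each stop codon on the transcript strand. The letters searched were GGNNNTTTNNANNNCC, with the first 6 bases complementary to the last 6 and a loop of 4 bases between them. A stem-loop of each of the 7 kinds found is shown with its 5 flanking bases on each side. These letters were found in most of the searched replication-dependent genes and in 1 variant, H2afx. Capitals mark the stem-loop.

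Hist1h1e: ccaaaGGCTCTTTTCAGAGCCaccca
Hist1h3e: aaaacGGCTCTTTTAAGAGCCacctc
Hist2h2ac: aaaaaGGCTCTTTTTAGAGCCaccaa
Hist1h4d: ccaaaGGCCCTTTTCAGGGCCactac
Hist1h4i: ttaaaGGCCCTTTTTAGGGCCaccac
Hist1h4b: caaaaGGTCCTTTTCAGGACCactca
H2afx: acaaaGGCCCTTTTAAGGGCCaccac

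The kind shown for Hist1h1e was found in 26 genes of H1, H2A, H2B and H3. That of Hist1h3e, with the loop TTTA in place of the TTTC of Hist1h1e, was found in 6 genes, and that of Hist2h2ac in 1. H4 messages carried other stems: the kind of Hist1h4d was found in 7 H4 genes, that of Hist1h4i in 2 and that of Hist1h4b in 2. The stem-loop began 22 to 59 bases after the stop codon, with a median of 32 bases. Among replication-dependent genes whose transcripts were annotated for at least 30 bases after the stop codon, 44 of 51 (86.3%) held a stem-loop. The transcripts of the other 16 were too short to search. Since 30 bases cannot hold a stem-loop that begins at the median distance, some transcripts without one may be cut short. Among the variants, 1 of 11 held one. This was H2afx, which encodes H2A.X, the H2A that is phosphorylated around DNA breaks and whose gene is known to give both a stem-loop and a polyadenylated message. Of the 13497 genes of the table that are no histone gene and had at least 30 such bases annotated, 1 (0.00741%) held these letters.

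Library quality and identity could be read only from averages over all 8 libraries, since none of the values per library was used. In the authors' deposited table the lowest mean normalized count was 10.4, the median gene had 192, and the sum over genes was 9627624, identical rows entering a single time. Markers of undifferentiated spermatogonia were present in 12 of 12 cases and none was called changed. In the authors' deposited table Zbtb16 had a mean count of 5143, Mcam 4854 and Gfra1 2586. Nanos3, Nanos2 and Utf1 were low, at 76.2, 66.1 and 14.9. Of the 12, 9 were below 0, with Ret at -0.23 (adjusted p = 0.0798) and Zbtb16 at -0.18 (adjusted p = 0.0875). Kit, which the sort selects against, had a mean count of 93.1. The 3 markers of differentiating spermatogonia, Dnmt3b, Sohlh1 and Stra8, had mean counts of 677, 462 and 350. Their log2 fold changes were 0.06, -0.09 and 0.30, and none was called. Of the markers of other testis cells, 4 of 5 of Sertoli cells, 1 of 4 of Leydig cells, 2 of 3 of peritubular myoid cells, 1 of 3 of leukocytes and 3 of 3 of endothelium had a row. Of these, the Sertoli marker Trf was called higher in Tert CreER/flox cells, at 0.62 on the log2 scale (adjusted p = 0.00255) and a mean count of 316, and the myoid marker Actg2 was called lower, at -1.17 (adjusted p = 0.0340) and a mean count of 89.0, in the authors' deposited table. The other Sertoli markers with a row were Rhox5 at 0.35, Wt1 at -0.03 and Sox9 at -0.50, and the other myoid marker was Myh11 at -0.10. None of these was called, and their mean counts lay between 16.2 and 24.3 in the authors' deposited table. The part of such testis cells in the values below was not tested. The targeted gene gave no check of the direction: Tert stood at 0.29 on the log2 scale (adjusted p = 0.595, SE 0.26) in the authors' deposited table, at a mean count of 98.0. The labels do not say which segment is deleted, and a count over the whole gene need not show the loss of a part. Fold changes were read as CreER/flox over CreER/+ from the name of the table, which says flox against WT. No group used here is labelled WT, and WT was taken to mean CreER/+. Every direction given here rests on that reading.

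Histone messages were abundant in these cells. The mean counts of the replication-dependent genes summed to 180726, or 1.88% of all mean counts in the authors' deposited table, against 0.174% for the variants. Per kilobase of coding sequence, summed mean counts were 222956 for replication-dependent H2A, 79368 for H2B, 65791 for H4, 52038 for H3 and 28307 for H1. Identical rows entered these sums a single time, near-identical copies entered each, and H3f4 had no coding sequence and was left out, so H3 and H4 are not ranked. H2A was the largest class per coding length and linker histones the smallest. Among replication-dependent genes the highest per length were Hist2h2aa2 and Hist2h2aa1, at 26142 and 26141 mean counts per coding kilobase, and the lowest was Hist2h4 at 339. Mean counts of the members lay between 63.9 for H2afj and 10274 for Hist2h2aa2 in the authors' deposited table, so all 79 stand clear of the low end of the table.

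Near-identical copies set a limit on single-gene values. The rows of Hist1h2bq and Hist1h2br were identical in every value, as were those of Hist2h3c1 and Hist2h3c2. The 79 rows thus held 77 distinct sets of values. These include 2 nearly equal pairs, Hist2h2aa1 and Hist2h2aa2 at mean counts of 10273.5 and 10274, and Hist1h2ao and Hist1h2ap at 10066 and 10061.1. Not all 77 are therefore separate measurements. Coding sequences were found for 66 replication-dependent genes and 62 of these were distinct, with 8 genes sharing theirs with another. Between genes of equal coding length, the median identity was 96.4% within H2A, 97.4% within H2B, 97.2% within H3 and 93.9% within H4. The sources used here do not give how reads matching several of these genes were assigned, and values of single core histone genes are uncertain for that reason.

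Of the 79 histone genes, 75 had a log2 fold change above 0 in Tert CreER/flox over Tert CreER/+ cells, where 50.1% of all genes did. Called at an adjusted p under 0.05 were 5 of them by the authors' deposited table, against 5.36% of all genes. The 4 called higher were Hist1h1b, H3f3a, H3f3b and Gm12657, where 1.94% of all genes were called higher, and the 1 called lower was H1fnt, where 3.42% of all genes were called lower. The share called is near that of all genes, so the count of calls by itself says nothing about histone genes. The test statistic was also read against a t distribution on 6 degrees of freedom, or a normal distribution 1.45 times as wide. That width is the one of the central statistics of all genes. With either, 0 of the 79 were called. Of all genes, 0 were called with the t distribution and 5 with the widened normal distribution, so this count does not set histone genes apart.

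The replication-dependent genes had much the same positive fold change, and nearly all of them missed the threshold. Of 67, 66 were above 0, and their median on the log2 scale was 0.50, or 1.42-fold, beside 0.00071 for all genes. Their log2 fold changes lay between -0.03 and 0.77 with an SD across genes of 0.13, and 55 of 67 fell between 0.35 and 0.65. At an adjusted p under 0.05, 1 of 67 (1.49%) was called higher and 0 lower, a share no larger than the 1.94% of all genes called higher. At an unadjusted p under 0.05, 28 of 67 (41.8%) were higher and 0 lower, where 9.15% of all genes were higher and 10.5% lower. The 95% intervals of 39 of the 67 genes held 0. These genes share libraries and sequence and may share reads, so they are not independent measurements of the condition.

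**Figure D1:**
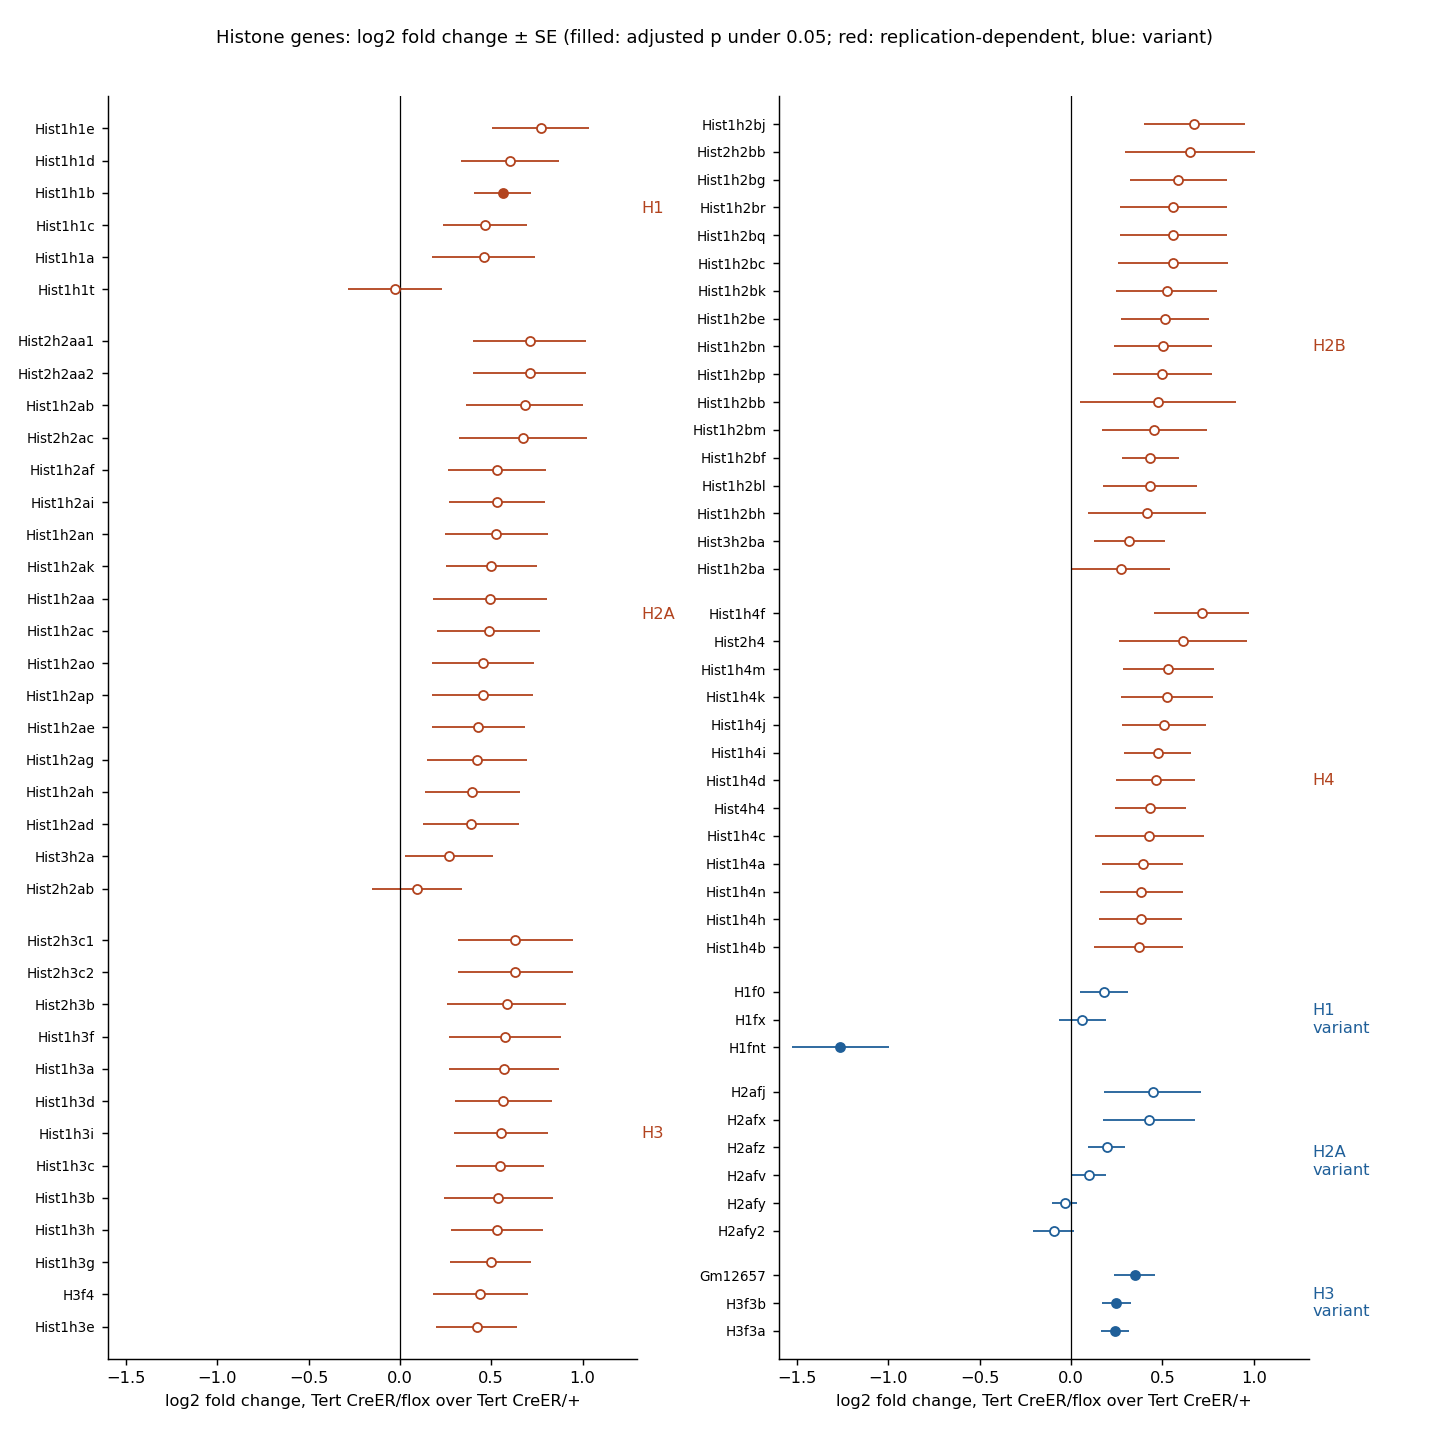
Log2 fold change of each histone gene, Tert CreER/flox over Tert CreER/+, with its SE as a horizontal bar, grouped by subclass; filled points passed an adjusted p of 0.05. The replication-dependent genes sit in a column near 0.50 with wide bars, while most variants sit nearer 0 with narrow bars and H1fnt stands apart at -1.26.

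The SEs of these genes were wide. Their median SE was 0.27, between 0.16 and 0.43. To read this against abundance, each SE was divided by the median SE of that gene and the 50 on each side of it in order of mean count. The median ratio was 3.59 for the replication-dependent genes, with a range of 1.35 to 6.06, and 0.99 for the variants. A ratio above 1.5 was found in 64 of 67 replication-dependent genes (95.5%), where 3.48% of all genes had one. Within the range of mean counts that these genes span, 409 of 9197 genes had such an SE and 64 of them, or 15.6%, were replication-dependent histone genes. The SE in this table carries both the spread between libraries of a group and counting error, and values per library, which would show which libraries differed, were not used here.

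The widest SE was that of Hist1h2bb, an H2B gene with a log2 fold change of 0.48 and an SE of 0.43 at a mean count of 3043 in the authors' deposited table, 6.06 times the SE of genes of like count. The narrowest ratios belonged to Hist3h2ba at 1.35, Hist2h2ab at 1.40 and Hist1h1b at 1.47. These 3 had mean counts of 242, 165 and 523 in the authors' deposited table, toward the low end of the group. H2afx, the variant with a stem-loop, stood with the replication-dependent genes on both measures. Its log2 fold change was 0.42 (adjusted p = 0.346, SE 0.25) at a mean count of 4478 in the authors' deposited table, with an SE ratio of 3.65. Grouping H2afx with the replication-dependent genes left their median at 0.50.

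**Figure D2:**
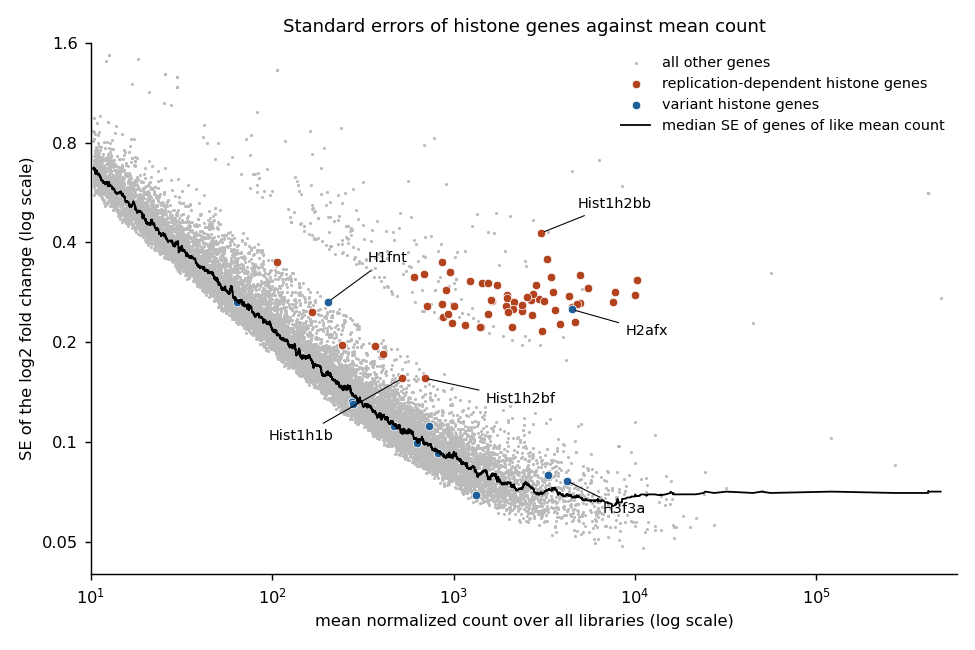
SE of the log2 fold change against mean normalized count, both on log axes, for all genes (grey), replication-dependent histone genes (red) and variants (blue), with the running median SE of genes of like count as a line. Nearly all red points lie well above the line, at a median of 3.59 times its height, and H2afx lies among them, while most blue points lie on the line.

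Fold changes were similar with and without a stem-loop in the annotation. The 44 replication-dependent genes with a stem-loop had a median log2 fold change of 0.49, the 7 without one had 0.56 and the 16 too short to search had 0.51. Median SE ratios were 3.61, 3.76 and 3.43 in the same order. By kind of stem-loop, medians were 0.51 for the 26 genes with the kind of Hist1h1e, 0.50 for the 6 with that of Hist1h3e and 0.43 for the 7 with that of Hist1h4d. These differences were not tested, and the SE of a single gene does not measure them.

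Among the linker histones, which compact chromatin between nucleosomes, 1 of 6 replication-dependent genes was called higher, where 1.94% of all genes were. At an unadjusted p under 0.05, 4 of 6 were higher, where 9.15% of all genes were. The called gene was Hist1h1b, which encodes H1.5 and lies at chromosome 13, 21779832 to 21780625 (GRCm38.p6). In the authors' deposited table it was higher in Tert CreER/flox cells by 0.56 on the log2 scale (adjusted p = 0.0137, SE 0.16), or 1.48-fold, at a mean count of 523. Its fold change lay within the range of the other H1 genes, and its SE was the smallest of the 67. With the part of the fold change that follows mean count, GC content and transcript length taken out, its adjusted p was 0.0547 and the call was lost. Hist1h1e, which encodes H1.4, had the highest value of all 79 genes, 0.77 (adjusted p = 0.0619, SE 0.27) in the authors' deposited table, at a mean count of 1630, and missed the threshold. Hist1h1d was at 0.60 (SE 0.27), Hist1h1c at 0.46 (SE 0.23) and Hist1h1a, the most abundant at a mean count of 7810, at 0.46 (SE 0.28) in the authors' deposited table. Hist1h1t, the linker histone of meiotic spermatocytes, was the single replication-dependent gene below 0, at -0.03 (adjusted p = 0.973, SE 0.26) in the authors' deposited table, and its message holds a stem-loop.

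None of the 18 H2A genes was called, where 5.36% of all genes were. At an unadjusted p under 0.05, 6 were higher, where 9.15% of all genes were. The nearly equal rows of Hist2h2aa1 and Hist2h2aa2 both count among the 6. The most abundant, Hist2h2aa1 and Hist2h2aa2, share their coding sequence and were both at 0.71 (adjusted p = 0.160, SE 0.31) in the authors' deposited table, the highest values of the subclass. They are followed by Hist1h2ab at 0.68 (SE 0.32) and Hist2h2ac at 0.67 (SE 0.35) in the authors' deposited table. The lowest was Hist2h2ab at 0.09 (adjusted p = 0.890, SE 0.25) in the authors' deposited table, a gene on the same stretch of chromosome 3 as Hist2h2aa1 but with a mean count of only 165. The median over the 18 genes was 0.49.

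None of the 17 H2B genes was called, where 5.36% of all genes were. At an unadjusted p under 0.05, 4 were higher, where 9.15% of all genes were. Hist1h2bf came closest, with 0.43 (adjusted p = 0.0752, SE 0.16) at a mean count of 694 in the authors' deposited table. Hist1h2bj had the highest value, 0.68 (adjusted p = 0.133, SE 0.28), in the authors' deposited table. Hist1h2ba, the testis H2B known as TH2B, had the lowest, 0.28 (adjusted p = 0.631, SE 0.27), at a mean count of 1611 in the authors' deposited table. The median was 0.50, the same as for the whole group.

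The 13 H3 genes had the narrowest range of the 5 subclasses, with values from 0.42 to 0.63 and a median of 0.55. None was called, where 5.36% of all genes were. At an unadjusted p under 0.05, 7 were higher, where 9.15% of all genes were. The identical rows of Hist2h3c1 and Hist2h3c2 both count among the 7. Hist2h3c1 and its copy Hist2h3c2 were highest at 0.63 (adjusted p = 0.238, SE 0.31), with a mean count of 3450 in the authors' deposited table. Hist1h3c had 0.55 (adjusted p = 0.169, SE 0.24) and Hist1h3g 0.50 (adjusted p = 0.176, SE 0.22), the smallest p-values of the subclass, in the authors' deposited table. Hist1h3e was lowest at 0.42 (adjusted p = 0.277, SE 0.22) in the authors' deposited table.

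The 13 H4 genes had a median of 0.46, and none was called, where 5.36% of all genes were. At an unadjusted p under 0.05, 7 were higher, where 9.15% of all genes were. Hist1h4f was highest at 0.72 (adjusted p = 0.0791, SE 0.26) in the authors' deposited table, at a mean count of 865, and next in order of p was Hist1h4i at 0.47 (adjusted p = 0.104, SE 0.18). The most abundant, Hist1h4n, had 0.39 (adjusted p = 0.345, SE 0.23) at a mean count of 3881, and the lowest, Hist1h4b, had 0.37 (adjusted p = 0.413, SE 0.24) in the authors' deposited table. Hist1h4m, whose coding sequence is the same as that of Hist1h4n, had 0.53 (SE 0.25) in the authors' deposited table.

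By place in the genome, the 54 replication-dependent genes on chromosome 13, the Hist1 cluster, had a median log2 fold change of 0.50 and the 9 on chromosome 3, the Hist2 cluster, had 0.63. Of the 3 on chromosome 11, Hist3h2ba had 0.32, Hist3h2a 0.27 and H3f4, described below, 0.44, and Hist4h4 on chromosome 6 had 0.43, in the authors' deposited table. The difference between these places was not tested, and the Hist2 cluster includes the near-identical pairs of Hist2h2aa and Hist2h3c genes, which count in pairs.

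H2A and H2B genes often lie head to head and share the DNA between their starts. In RefSeq coordinates 10 such pairs were found among the members, with 164 to 281 bases between starts and a median of 204.5. The members of a pair had similar values: the median absolute difference in log2 fold change was 0.11, from 0.0023 for Hist1h2ak and Hist1h2bn to 0.25 for Hist1h2ag and Hist1h2bj. In the authors' deposited table Hist1h2ag was at 0.42 (SE 0.28) and Hist1h2bj at 0.68 (SE 0.28). Each SE belongs to the comparison of that gene between the groups and does not measure a difference between genes. The whole group varied as little, with an SD of 0.13, and the pairs were not tested against it.

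**Figure D3:**
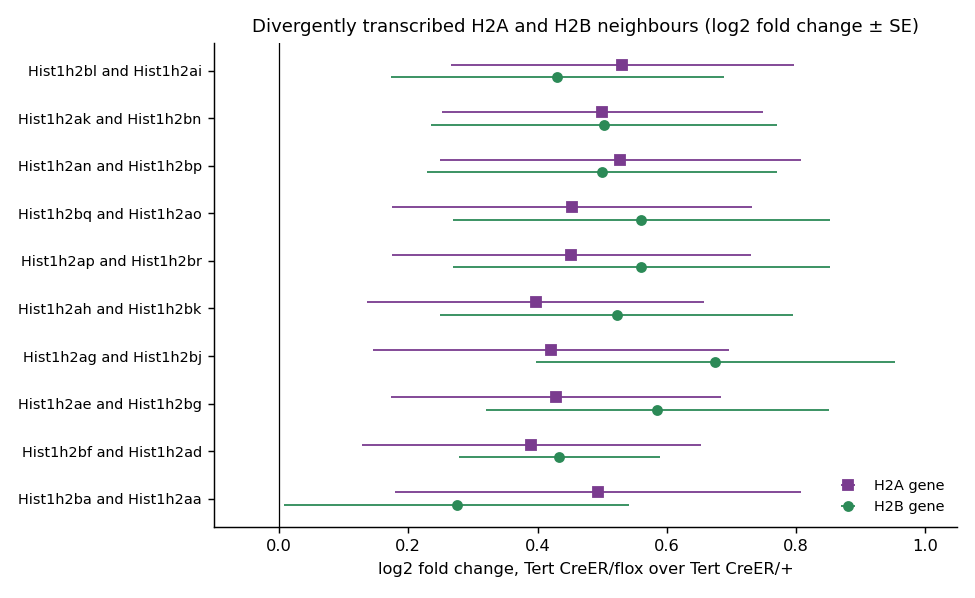
Log2 fold change with its SE, Tert CreER/flox over Tert CreER/+, for the H2A gene (square) and the H2B gene (circle) of each of 10 head-to-head pairs. The bars belong to each gene's own comparison and do not measure the difference within a pair. The largest such difference is 0.25, between Hist1h2ag and Hist1h2bj.

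Promoters were read from RefSeq for 74 of the 79 members (63 replication-dependent and 11 variant), from 250 bases before to 50 after the start. Shown are 4: Hist1h1b, the called replication-dependent gene, Hist1h2bf, the H2B gene nearest to the threshold, H1fnt, the gene called lower, and H3f3a, a called variant. Capitals mark CCAAT and TATAAA on either strand, so ATTGG and TTTATA are the same motifs read backwards. The windows are chr13:21780576-21780875 for Hist1h1b, chr13:23574158-23574457 for Hist1h2bf, chr15:98257258-98257557 for H1fnt and chr1:180813556-180813855 for H3f3a, all on the minus strand of GRCm38.p6.

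Hist1h1b: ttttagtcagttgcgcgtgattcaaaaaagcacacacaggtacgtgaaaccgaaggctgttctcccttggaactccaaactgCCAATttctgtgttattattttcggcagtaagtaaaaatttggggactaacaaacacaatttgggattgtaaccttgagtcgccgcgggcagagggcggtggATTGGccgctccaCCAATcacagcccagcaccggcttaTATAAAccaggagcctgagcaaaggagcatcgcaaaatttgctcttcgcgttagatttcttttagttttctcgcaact
Hist1h2bf: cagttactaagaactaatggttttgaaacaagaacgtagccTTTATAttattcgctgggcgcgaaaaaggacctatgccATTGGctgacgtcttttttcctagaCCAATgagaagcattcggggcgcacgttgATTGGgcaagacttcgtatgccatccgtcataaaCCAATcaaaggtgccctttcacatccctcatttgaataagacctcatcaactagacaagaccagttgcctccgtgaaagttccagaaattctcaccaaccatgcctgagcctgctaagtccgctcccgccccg
H1fnt: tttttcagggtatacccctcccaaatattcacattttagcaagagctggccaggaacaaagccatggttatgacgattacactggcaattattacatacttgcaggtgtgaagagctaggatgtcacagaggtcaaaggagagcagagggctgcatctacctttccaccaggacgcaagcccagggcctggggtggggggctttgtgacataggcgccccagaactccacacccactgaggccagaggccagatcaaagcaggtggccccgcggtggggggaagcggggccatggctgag
H3f3a: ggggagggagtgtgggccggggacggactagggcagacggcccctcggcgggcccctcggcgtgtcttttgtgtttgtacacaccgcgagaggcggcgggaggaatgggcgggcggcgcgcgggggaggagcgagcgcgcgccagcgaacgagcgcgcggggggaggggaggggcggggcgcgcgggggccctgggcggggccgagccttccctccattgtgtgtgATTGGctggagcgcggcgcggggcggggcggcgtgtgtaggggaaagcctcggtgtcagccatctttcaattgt

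CCAAT, the letters bound by the factor NF-Y, were found on either strand in 54 of 63 replication-dependent promoters (85.7%) and 7 of 11 variant promoters, against 37.9% of all 27025 promoters. All H1, H2A, H2B and H3 promoters of the replication-dependent group held it, and 3 of 12 H4 promoters did. TATAAA was found in 36 of 63 (57.1%) and in 1 of 11 variants, against 14.2% of all promoters. The octamer ATTTGCAT, bound by OCT1 in histone promoters, was found in 13 of 63, which were 7 H2A and 6 H2B genes, against 1.75% of all promoters. Of the head-to-head pairs, 3 of 10 held it. Starts of head-to-head neighbours were 164 to 281 bases apart, so their windows overlap and the same letters can count for both genes. A window can also run past the start of the neighbour. The TTTATA marked for Hist1h2bf lies beyond the start of Hist1h2ad, which is 174 bases away. These matches describe letters in a fixed window and say nothing about binding.

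By their medians, the variants had smaller differences than the replication-dependent genes and SEs like those of other genes. Single variants differed from this. H1fnt had the largest change of all members, at -1.26, and H2afj at 0.45 and H2afx at 0.42 were near the replication-dependent median of 0.50. SE ratios of H1fnt and H2afx were 1.63 and 3.65. Of the 12 variants, 9 were above 0, and their median on the log2 scale was 0.19, or 1.14-fold. Called were 3 higher and 1 lower, where 1.94% of all genes were called higher and 3.42% lower. Each of these 4 calls was lost with the t distribution and with the widened normal distribution. So were nearly all calls in the table, since 0 and 5 of all genes were called in the same order.

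All 3 rows with the gene names of H3.3, the H3 variant placed in chromatin outside S phase, were called higher in Tert CreER/flox cells. H3f3a (chromosome 1, 180802560 to 180813605) was higher by 0.24 (adjusted p = 0.0393, SE 0.08) at a mean count of 4214 in the authors' deposited table. H3f3b (chromosome 11, 116021961 to 116026039) was higher by 0.25 (adjusted p = 0.0395, SE 0.08) at a mean count of 3305 in the authors' deposited table. Both genes encode the same protein. A further row carries the symbol H3f3b in the authors' deposited table but an identifier that RefSeq names Gm12657, on chromosome 4, and it was higher by 0.35 (adjusted p = 0.0394, SE 0.11) at a mean count of 737. Without this row 3 variants were called, and the median of the variants was 0.18. Whether its reads come from H3f3b cannot be told apart here, so it is counted as a row among the members but not read as a separate gene of H3.3. These are differences of 1.18-fold to 1.27-fold that lie just under the threshold, and those of H3f3a and H3f3b did not pass once the part of the fold change that follows mean count, GC content and transcript length was taken out (adjusted p = 0.619 and 0.642), which also brought the median of the variants to 0.05. Gm12657 had no transcript length and was not covered by that removal.

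None of the 6 H2A variants was called. H2afz, which encodes H2A.Z, had 0.19 (adjusted p = 0.256, SE 0.10) and H2afv, the other H2A.Z gene, 0.10 (SE 0.09) in the authors' deposited table. The macroH2A genes H2afy and H2afy2, whose products carry a large extra domain, were at -0.04 (SE 0.07) and -0.09 (adjusted p = 0.715, SE 0.11) in the authors' deposited table. H2afj had 0.45 (adjusted p = 0.345, SE 0.26) at the lowest mean count of all members, 63.9, in the authors' deposited table. Apart from H2afx, the SE ratios of these genes lay between 0.84 and 0.99.

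Among the linker variants, H1f0, a histone of resting and differentiated cells, had 0.18 (adjusted p = 0.476, SE 0.13) and H1fx had 0.06 (adjusted p = 0.856, SE 0.13) in the authors' deposited table. H1fnt (chromosome 15, 98255982 to 98257307) encodes H1T2, the linker histone of mouse spermatids, and had the largest change of all members. It was lower in Tert CreER/flox cells, at -1.26 on the log2 scale (adjusted p = 0.000555, SE 0.26), a 2.40-fold decrease, at a mean count of 204 in the authors' deposited table. It passed the threshold with the trend removed. It did not pass with the t distribution (adjusted p = 0.439) or the widened normal distribution (adjusted p = 0.304). Of all genes, 0 were called with the t distribution and 5 with the widened normal distribution, so this loss is not particular to H1fnt.

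Spermatid genes had negative fold changes beside H1fnt, and their messages were measured although the sort was for spermatogonia. All 8 spermatid markers were below 0, with a median of -1.18 and a range of -1.47 to -1.01, and 3 were called lower, where 3.42% of all genes were. The called markers were Odf1 at -1.14, Spem1 at -1.47 and Tssk1 at -1.37 in the authors' deposited table. Prm1 (protamine 1) was at -1.23 (adjusted p = 0.0807, SE 0.45) with a mean count of 1260 in the authors' deposited table. The spermatid markers had a median SE ratio of 2.91, and H1fnt had 1.63. The 6 spermatocyte markers were split, with 3 above 0 and 3 below, and their median was -0.22. Piwil1 at -0.73 and Sycp2 at -0.53 were called lower, and Ldhc was at -0.96. Above 0 were Hormad1 at 0.28, Sycp1 at 0.14 and Sycp3 at 0.09, none of them called. The part of spermatid RNA in the value of H1fnt was not tested.

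Of the histone genes known from germ cells, 5 were among the members: Hist1h1t, Hist1h2aa, Hist1h2ba, H3f4 and H1fnt. The other 4 were not called. Hist1h2aa, the testis H2A known as TH2A, had 0.49 (adjusted p = 0.395, SE 0.31) and H3f4, which encodes the testis histone H3t, had 0.44 (adjusted p = 0.342, SE 0.26), in the authors' deposited table, where its row carries the symbol Hist1h3i. TH2B and the H1t gene, given above, were at 0.28 and -0.03. Without the 4 that belong to the replication-dependent group, the other 63 genes of that group were all above 0, with a median of 0.51.

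Histone-like genes of spermatids outside the naming rule also had negative values. Hils1, a linker histone-like protein of spermatids, was lower, at -0.98 on the log2 scale (adjusted p = 0.0233, SE 0.29) and a mean count of 90.7 in the authors' deposited table. H2bl1 was at -1.35 (adjusted p = 0.134, SE 0.56) in the authors' deposited table. The 11 rows of H2al genes, which encode short H2A proteins of late spermatids, were all below 0 with a median of -0.68, though none was called and 4 of their rows were identical. Cenpa, the H3 of centromeres, had 0.30 (adjusted p = 0.197, SE 0.14) in the authors' deposited table. In the list of other histone-like genes as a whole, 18 of 20 listed genes had a row, and the median was 0.09. Among these 0 were called higher and 1, Hils1, lower, where 1.94% and 3.42% of all genes were.

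**Figure D4:**
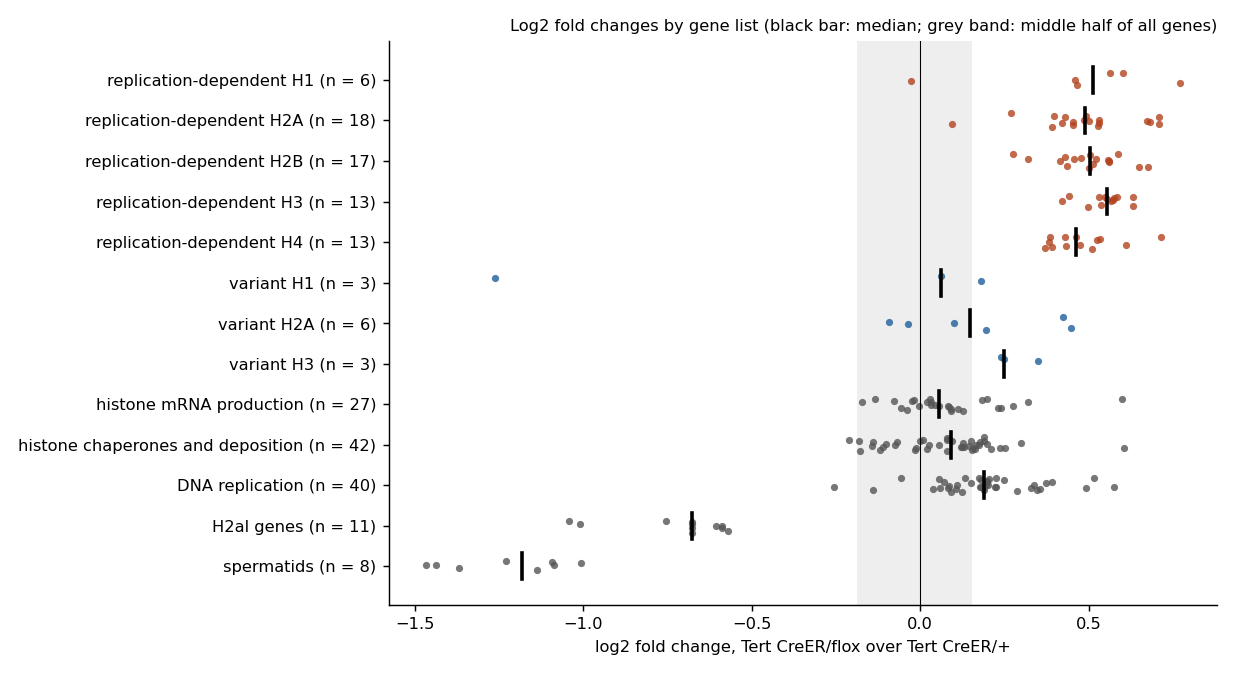
Log2 fold changes, Tert CreER/flox over Tert CreER/+, of the histone subclasses and of related gene lists; each point is a gene, the black bar the median and the grey band the interquartile range of all genes. The 5 replication-dependent subclasses have medians of 0.46 to 0.55, DNA replication genes 0.19, and spermatid markers -1.18.

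The genes that make and process histone messages had smaller differences. Of 30 listed, 27 had a row, and the median was 0.06. Among these 1 was called higher and 0 lower, where 1.94% and 3.42% of all genes were. The called gene was Ccne1, which encodes cyclin E1, the partner of CDK2 that drives histone transcription at the start of S phase. It was higher by 0.60 (adjusted p = 0.0425, SE 0.19) at a mean count of 123 in the authors' deposited table. Slbp, which encodes the stem-loop binding protein, had 0.24 (adjusted p = 0.0705, SE 0.08), and Eri1, an exonuclease that trims the stem-loop end, had 0.32 (adjusted p = 0.0637, SE 0.11), in the authors' deposited table. Npat, the coactivator of histone transcription, had 0.02 (SE 0.09) in the authors' deposited table. The SE ratios of this list had a median of 1.00, against 3.59 for the histone messages.

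Of 44 listed histone chaperones and deposition factors 42 had a row, and the median was 0.09. Among these 1 was called higher and 0 lower, where 1.94% and 3.42% of all genes were. The called gene was Nap1l1, a chaperone of H2A and H2B, at 0.20 (adjusted p = 0.0320, SE 0.06) in the authors' deposited table. Hat1, which acetylates newly made H4, had 0.21 (adjusted p = 0.0854, SE 0.08), while Chaf1a, the large subunit of the chromatin assembly factor CAF-1, had 0.01 (SE 0.09), in the authors' deposited table.

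All 40 listed DNA replication genes had a row, and 37 were above 0, where 50.1% of all genes were. The median was 0.19. At an unadjusted p under 0.05, 19 were higher and 2 lower, where 9.15% and 10.5% of all genes were. The 2 lower were Tyms at -0.26 and Rfc1 at -0.14. At an adjusted p under 0.05, 4 were called higher and 0 lower, where 1.94% and 3.42% of all genes were. The called genes were Rfc4 at 0.34 (adjusted p = 0.0233, SE 0.10), Pold1 at 0.35 (adjusted p = 0.0374, SE 0.11), Gins1 at 0.51 (adjusted p = 0.0404, SE 0.17) and Gins2 at 0.57 (adjusted p = 0.0435, SE 0.19) in the authors' deposited table. They encode a subunit of the clamp loader, the catalytic subunit of DNA polymerase delta and members of the GINS complex of the replicative helicase. Their median fold change was below that of the replication-dependent histone genes, and their SE ratios had a median of 1.02. Whether the 2 lists moved together in the same libraries was not tested, since values per library were not used here.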

How the data were processed

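Libraries were made from total RNA with the SMARTer Stranded Total RNA-Seq Kit (pico input), per the labels' protocols, which keeps messages without a poly(A) tail. Reads were handled with DESeq2, Bowtie, Bowtie2 2.0.0-6, TopHat2 2.0.4 and Trim Galore on builds mm10 and GRCm38, per the submitters' processing notes, which give no order. The read counter, its annotation and its treatment of multiply mapped reads were not given in the sources used. The deposited mean counts are a normalized count signal averaged by the authors over all 8 libraries. The log2 fold changes and SEs were deposited by the authors, as was the Wald score, which matched their quotient to within 2.58e-07. The deposited p-values and adjusted p-values matched a normal distribution and a Benjamini-Hochberg adjustment over all rows to within 0.424% and 0.426%. No model was fitted across libraries, and depth per library was not used here, so precision is given by the SEs.

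Of 14853 rows, 14828 matched RefSeq genes of GRCm38.p6 by gene ID, which gave names and positions. Members were found by the symbols in the table, and RefSeq names were an alternative. Members, lists and named genes were chosen with earlier results of these data known. The text names every called histone gene, in each subclass the smallest 2 p-values, the extreme fold changes and the highest mean count, the germ cell histones and up to 6 called genes of each list. The SE ratio, stem-loop, promoter and head-to-head descriptions, the promoters shown, the H2al genes and other genes named beyond that rule were chosen after values were seen. Intervals are the fold change with its SE at a level of 95%. Alternatives were other thresholds, a minimum fold, other sets of rows for the adjustment, a t distribution on 6 degrees of freedom, a normal distribution 1.45 times as wide (from the central statistics of all genes), centring, removal of a fitted trend in mean count, GC content and transcript length, and other member sets. Steps were tested on simulated data. Software was matplotlib 3.10.9, scipy 1.17.1, numpy 2.4.6 and pandas 2.3.3 under Python 3.11.15.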

Additional observations from a re-analysis of the deposited data

How the results depend on the processing

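Of the 5 histone genes called at an adjusted p under 0.05 (1 replication-dependent, 4 variant) and the 7 called in the related lists, 8 histone genes (4 replication-dependent) and 14 list genes were called at 0.1. At 0.01 these counts were 1 (0 replication-dependent, 1 variant) and 0, and with a fold of at least 1.5 they were 1 (0 replication-dependent, 1 variant) and 2. With a t distribution of 6 degrees of freedom, or with the normal distribution widened to the central statistics, they were 0 throughout, while 0 and 5 of all 14853 genes were called. With the trend in mean count, GC content and transcript length removed, 1 histone gene (0 replication-dependent, 1 variant, H1fnt) and 3 list genes were called, and 392 of 13690 covered genes, against 704 before. Hist1h1b then had an adjusted p of 0.0547, the cause of which was not tested. The same removal took the median of the variants to 0.055, against 0.19, and turned H1fx to -0.016 (adjusted p = 0.98), while 66 replication-dependent genes were still above 0 and their median was 0.42. Without members of wide SE, 3 replication-dependent genes were left, with a median of 0.32, and under the other choices of members their median was 0.50 to 0.51 and that of the variants 0.14 to 0.19. With 25 or 250 genes on each side, chosen after seeing the data, the median SE ratio was 3.55 or 3.58. Of 308 values of single named genes under an alternative, 283 stayed on their side of the threshold with their sign, 21 lost their call, 3 gained one (Hist1h1e, Hist1h2bf and Hist1h4f at 0.1) and 1 turned sign.

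No paired analysis was possible because values per library were not used here, and leaving out each replicate was not run for the same reason.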
